A study of Mus musculus with 46 samples.

Results

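Elk3, Elk1, Elk4 and Srf were examined here, 4 of the 55487 genes in the deposited tables, taken by their gene symbols and read in all 46 libraries. Elk3 was chosen on its low level in islets labelled Tfam KO, so those values describe it and carry no test. Elk1 and Elk4 came with it as the other ternary complex factors, and Srf as the partner with which these factors form the ternary complex.

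Ternary complex factors are DNA-binding proteins of the ETS family that sit beside a dimer of serum response factor, the product of Srf, on short DNA elements called CArG boxes. Kinases of the ERK route, which carry signals from growth factor receptors, phosphorylate the ternary complex factors and so turn on immediate-early genes such as Fos and Egr1. Elk3, also called Net, acts as a repressor until it is phosphorylated, is well known in endothelial cells, and is described as a repressor of the heme oxygenase gene Hmox1. Srf has a second set of partners, the coactivators Mrtfa, Mrtfb and Myocd, which drive cytoskeletal genes.

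The libraries came from mouse islets and livers, with groups named for 4 targeted mitochondrial genes. Tfam encodes a factor that packages and transcribes mitochondrial DNA, Clec16a a regulator of the clearance of mitochondria, and Mfn1 and Mfn2 proteins of mitochondrial fusion. The groups were Tfam control (5 female and 3 male libraries) and Tfam KO islets (4 female and 2 male), Clec16a control and Clec16a KO islets on RFD (4 and 4) or HFD (6 and 5), and livers labelled control (6), Mfn DKO (4) or Tfam KO (3). The diet letters are not written out in the labels, the liver groups carry the letters AAV in their names, and sex is labelled in the Tfam islets alone. The Cre or promoter used, the strain and the age are not given in the sources used here, and nothing states whether the control animals carried a transgene or a virus. The islets had been cultured overnight and the livers flash frozen. The labels call the replicates biological but do not say how many animals went into each, so p-values measure the spread between these libraries.

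In all 3 experiments the genes tested were those that passed a filter on low counts, and calls were made where the adjusted p did not exceed 0.05 (edgeR's quasi-likelihood test, two-sided, Benjamini-Hochberg over all genes tested). Levels are CPM, counts scaled to a common library total, on library sizes scaled by TMM unless TPM is named. All 4 genes passed the filter in every experiment. Libraries held 55223041 to 83342809 counts for Tfam islets, 16235173 to 55810879 for Clec16a islets and 41961114 to 56894510 for livers. Elk3 itself had 172 to 4532 counts per library. Transcripts of the targeted genes checked the labels. Tfam fell 2.31-fold in the Tfam KO islets and 4.01-fold in the Tfam KO livers, and Mfn1 and Mfn2 fell 4.01-fold and 4.11-fold in the Mfn DKO livers, each without overlap between the groups. For Clec16a, transcript was no lower where the label was Clec16a KO, at 26.5 ± 2.74 against 24.3 ± 3.71 CPM on RFD and 28.1 ± 3.31 against 26.6 ± 3.60 CPM on HFD (SD), and whether the counted exons lie outside the targeted part is not known here. Directions in the Clec16a islets rest on those labels.

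In the GENCODE M21 annotation of GRCm38, Elk3 (ENSMUSG00000008398) lies on chromosome 10 from 93247414 to 93311135 on the minus strand. Elk1 (ENSMUSG00000009406) lies on chromosome X from 20933395 to 20950608, minus strand, Elk4 (ENSMUSG00000026436) on chromosome 1 from 132007607 to 132032612, plus strand, and Srf (ENSMUSG00000015605) on chromosome 17 from 46548329 to 46556175, minus strand. All 4 are protein coding. Elk3 shares 316 of its 4550 exonic bases with Cdk17, a kinase gene on the opposite strand, and reads there cannot be told apart where counting ignores strand. Elk1 shares 76 exonic bases with Uxt, and Elk4 shares 84 with Mfsd4a and 104 with Gm29103.

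The 250 bases before the start of Elk3 and of Srf are shown because the members work through CArG boxes and Srf is itself a known target of its own complex. They come from RefSeq on GRCm38.p6, read 5′ to 3′ on the gene's strand. CArG boxes on either strand are in capitals.
Elk3, chr10:93311160-93311409, minus strand: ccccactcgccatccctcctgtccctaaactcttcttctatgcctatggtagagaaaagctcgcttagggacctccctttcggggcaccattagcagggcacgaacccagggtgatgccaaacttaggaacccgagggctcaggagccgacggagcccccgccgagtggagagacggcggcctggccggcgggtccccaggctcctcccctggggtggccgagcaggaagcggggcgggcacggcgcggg
Srf, chr17:46556163-46556412, minus strand: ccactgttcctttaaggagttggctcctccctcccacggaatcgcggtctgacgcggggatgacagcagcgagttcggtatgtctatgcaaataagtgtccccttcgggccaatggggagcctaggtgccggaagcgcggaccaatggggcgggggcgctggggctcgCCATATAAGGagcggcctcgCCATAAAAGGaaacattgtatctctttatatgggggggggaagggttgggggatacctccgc
The Srf window held 2 CArG boxes and the Elk3 window none, and 482 of 32851 RefSeq windows of this length (1.47%) held at least 1. The ETS consensus CCGGAAGT, searched as an exact string on both strands, was in neither of these windows. It was in 1 of the 3 listed for Elk4 and was not in that of Elk1. It was in 945 of the 32851 windows (2.88%). The shorter stretch GGAA, which both printed windows hold, was not counted.

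Elk3 was the member whose level differed most between groups, and it was chosen on its low level in the Tfam KO islets among them. In the authors' TPM, which is scaled by transcript length and so allows levels of different genes to be set side by side, Elk3 stood at 18.5 ± 1.75 (SD, n = 5) in Tfam control females, 22.1 ± 2.95 (n = 3) in Tfam control males, 19.7 ± 2.09 (n = 4) in Clec16a controls on RFD and 21.1 ± 2.86 (n = 6) in Clec16a controls on HFD. These 4 control groups overlapped, so islets of both experiments started from a like TPM. The Clec16a KO islets were the highest of the 11 groups, at 42.4 ± 11.3 (n = 5) on HFD and 41.7 ± 5.84 (n = 4) on RFD, and their ranges overlapped each other. The Tfam KO islets were down among the livers, at 4.16 ± 0.430 (n = 4) in females and 3.09 ± 0.478 (n = 2) in males. The livers read 6.19 ± 0.168 (n = 4) for Mfn DKO, 4.92 ± 0.476 (n = 6) for control and 3.93 ± 1.72 (n = 3) for Tfam KO. Values across the 3 experiments are set beside each other as a description only.

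By group mean, Srf was the most abundant of the 4 in the 6 islet groups other than Clec16a KO, and Elk4 in control and Mfn DKO livers. In Tfam KO livers Srf was at 19.6 ± 6.18 and Elk4 at 18.9 ± 1.86 TPM, with overlapping ranges. Srf ran from 17.2 to 43.6 TPM over the islet libraries of both experiments and from 9.39 to 25.4 TPM in the livers. Elk4 went the other way, at 15.8 to 23.5 TPM in the livers, 4.97 to 11.97 TPM in the Tfam islets and 3.53 to 5.31 TPM in the Clec16a islets. Elk1 had the lowest mean of the 4 in every liver group, and ran from 3.36 to 8.65 TPM in islets and from 2.19 to 4.08 TPM in livers. Groups next to each other in the order of Elk1 means all overlapped. In the Clec16a KO islets Elk3 passed Srf in TPM in group mean, 41.7 against 31.8 on RFD and 42.4 against 34.1 on HFD, and in the Tfam KO islets it was below Elk1, with 4.16 against 5.62 TPM in females and 3.09 against 5.82 TPM in males.

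**Figure D1:**
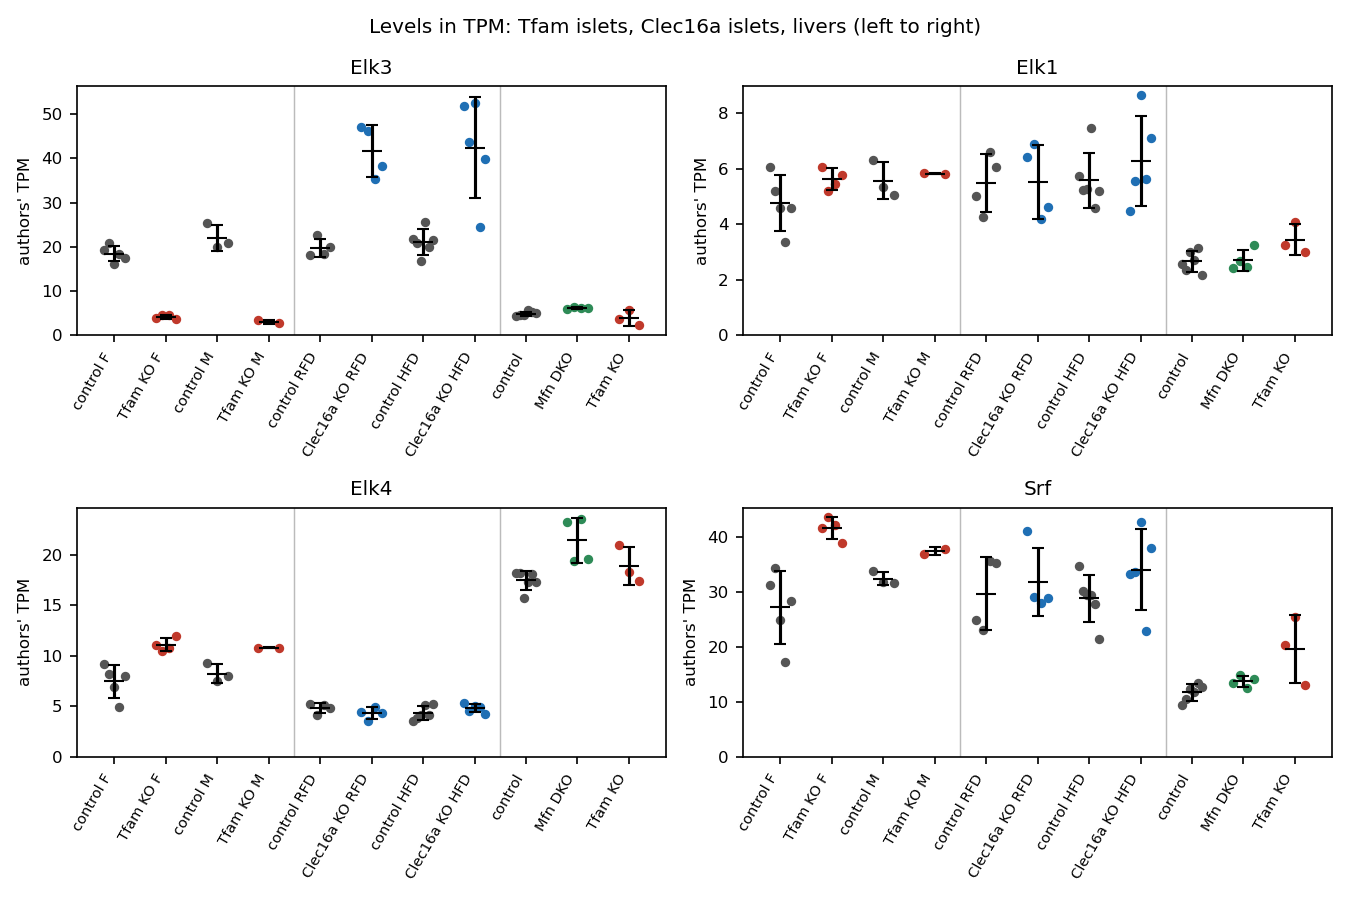
Levels of Elk3, Elk1, Elk4 and Srf in the authors' TPM (vertical axis, from 0) in each of the 11 groups (horizontal axis). Points are libraries, the wide bar is the mean and the whiskers are 1 SD. Elk3 is near 20 TPM in the control islets, near 42 TPM in the Clec16a KO islets and between 2.75 and 4.54 TPM in the Tfam KO islets.

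Islets labelled Tfam KO, set against their controls, are where Elk3 was singled out. In CPM the 5 female controls read 38.3, 42.4, 34.6, 50.2 and 36.1 and the 4 female KO libraries 6.04, 7.50, 7.30 and 6.17. The 3 male controls read 51.6, 42.5 and 44.4, and the 2 male KO libraries 5.87 and 4.42. The groups lay far apart, with 7.50 CPM the highest KO value and 34.6 CPM the lowest control value. Over both sexes the means were 6.22 ± 1.12 (SD, n = 6) and 42.5 ± 6.18 CPM (n = 8), a log2 difference of -2.78 (SE 0.13), or 6.86-fold. Of 19752 genes tested, 20.9% were called in this comparison, 11.6% higher and 9.29% lower. Elk3 had the 44th lowest log2 fold change of all, and of the genes with a control mean of at least 5 CPM only 3, Elk3 included, were as low or lower. Elk3 was chosen for this fall, so both ranks are a description only.

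The difference was -2.58 (SE 0.13) in females and -3.16 (SE 0.19) in males on the log2 scale, against 10.8% and 8.93% of genes called in those comparisons. The difference between the sexes was -0.59 (SE 0.21), given as a description, since the same libraries chose Elk3. Leaving out 1 of the 2 male KO libraries moved the male value to -3.39 or -2.98.

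The scaling set the level of the typical gene in this comparison. With library totals alone, with no TMM factor, the median of all genes tested was 0.20 (log2) higher in the Tfam KO islets and 91.0% of calls were higher, against 55.5% with TMM. For females the share of higher calls went from 61.5% to 93.2% and for males from 58.7% to 90.2%. With the deposited TPM the median shift was 0.30 and 97.4% of calls were higher. Elk3 read -2.57 and -2.24 on those scales, which is -2.76 and -2.54 relative to the median gene. Beta cell markers also differed: all 8 were called lower, beside 9.29% of all genes. Their summed level ran from 105113 to 140814 CPM in KO and from 187679 to 293822 CPM in control islets. Of 5 alpha cell markers none was called by edgeR or had an unadjusted p under 0.05, and their sum ran from 37058 to 51792 CPM against 23160 to 102536 CPM. The part of these shifts in the low Elk3 was not tested.

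**Figure D2:**
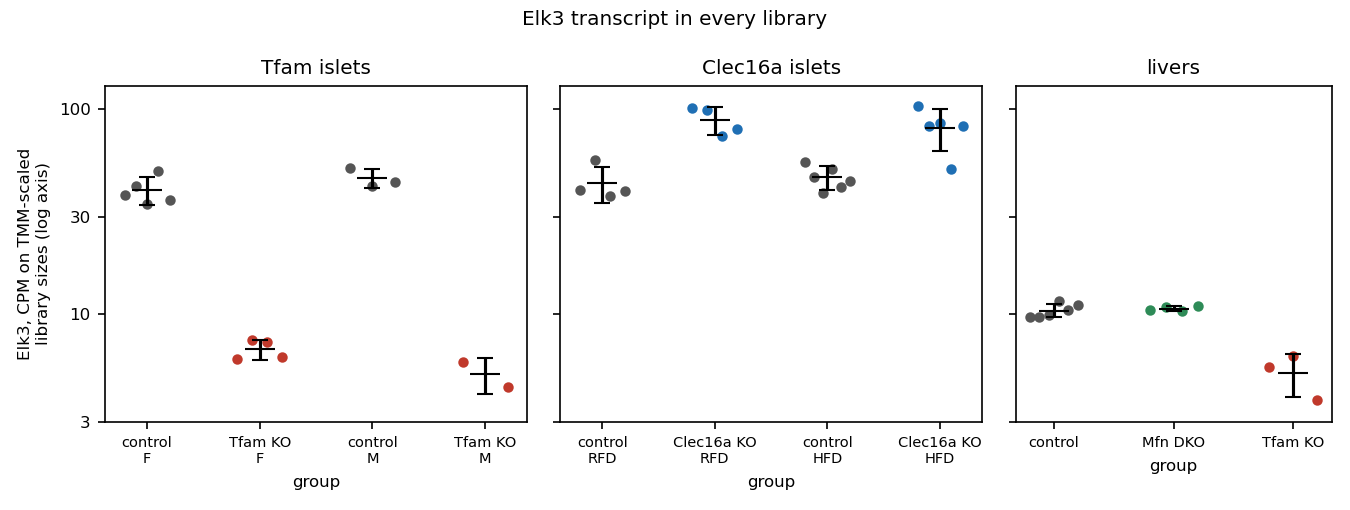
Elk3 in every library, in CPM on TMM-scaled library sizes (vertical log axis), by group (horizontal axis) for Tfam islets, Clec16a islets and livers. Points are libraries, the wide bar is the mean and the whiskers are 1 SD. All 6 Tfam KO islet libraries lie between 4.42 and 7.50 CPM, and 1 Clec16a KO library on HFD, at 51.4 CPM, lies among the controls.

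The rest of the family did not share the low Elk3 of Tfam KO islets. Elk1 ran from 10.1 to 11.8 CPM with a median of 11.2 in KO and from 10.9 to 15.2 CPM with a median of 12.6 in control islets, and the groups overlapped, with a log2 difference of -0.20 (SE 0.08, adjusted p = 0.0674 by edgeR's quasi-likelihood test). That value just missed the threshold, and the DESeq2 Wald test called it (adjusted p = 0.0301). Elk1 read 0.18 in the deposited TPM, where the median gene moved by 0.30, so it was below the median gene by 0.12 in TPM and by 0.19 with TMM. It read 0.00 with library totals alone. Elk4 ran from 24.4 to 27.8 CPM in KO and from 19.1 to 26.4 CPM in control islets, also overlapping. Its means were 25.3 ± 1.40 against 23.1 ± 2.37 CPM, a log2 difference of 0.13 (SE 0.07, adjusted p = 0.209). Srf stood at 41.7 ± 2.53 against 39.2 ± 5.28 CPM, a difference of 0.10 (SE 0.08, adjusted p = 0.471). Elk4 and Srf were called higher with library totals alone (0.33 and 0.30) and in the deposited TPM (0.50 and 0.49), which relative to the median gene is 0.13 and 0.10, and 0.20 and 0.19. In males alone the Srf ranges did not overlap, 40.1 and 38.6 CPM in KO against 43.5, 43.0 and 42.9 CPM in controls, with an adjusted p of 0.569 and a difference of -0.13 that read 0.064 with library totals alone.

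Genes around Elk3 on the chromosome were read as well, since Tfam lies on the same chromosome, 22.0 Mb away. Of the 5 measured genes on each side of Elk3, 1 was called in the Tfam KO islets, the cilium gene Cfap54, with a log2 difference of -0.50 (SE 0.14, adjusted p = 0.0159 in edgeR). Cdk17, which overlaps Elk3, was at 24.5 ± 2.46 against 23.1 ± 3.43 CPM (adjusted p = 0.619). Lta4h, a leukotriene enzyme gene on the other side, was at 37.4 ± 1.91 against 35.4 ± 2.95 CPM (adjusted p = 0.425), and Nedd1, a centrosome gene, at 13.9 ± 1.19 against 12.3 ± 1.064 CPM (adjusted p = 0.121). The other 6 (Rmst, Gm49783, Gm32688, Mir7688, Amdhd1 and Ccdc38) were all under 0.5 CPM in both groups and none was called. From Tfam to Elk3, 298 genes were tested and 75 were called, 40 lower and 35 higher, which is 25.2%. Of all genes tested in this comparison 20.9% were called, 9.29% lower and 11.6% higher. The 298 held a larger share of lower calls than all genes, Tfam and Elk3 among them, and a like share of higher calls. Of the 298, 6 were at least 2-fold lower: Tfam, Odf3l2, Madcam1, Gm16315, Rfx4 and Elk3.

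**Figure D3:**
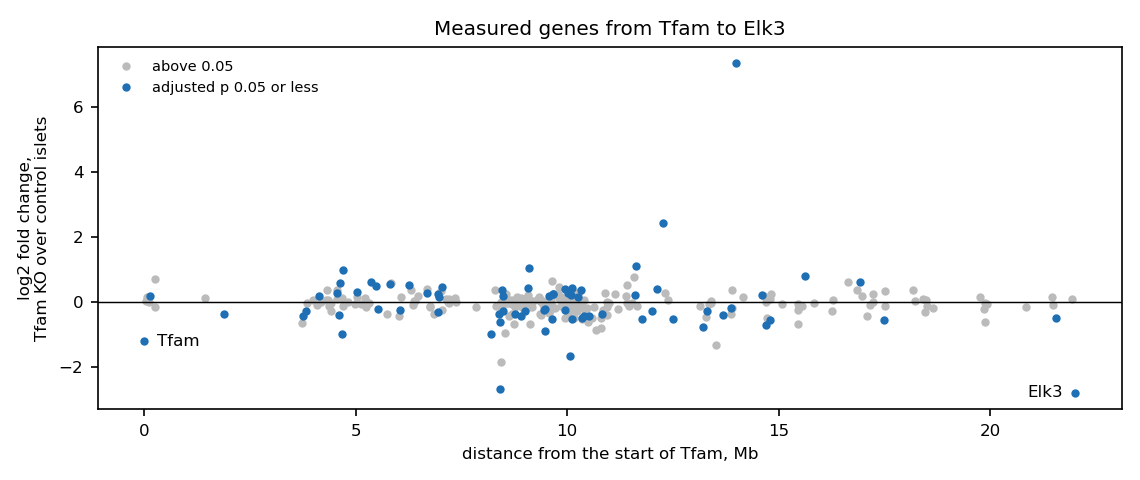
Log2 fold change of Tfam KO over control islets (vertical axis) for the 298 genes measured from Tfam to Elk3, by distance from the start of Tfam in Mb (horizontal axis). Blue points have an adjusted p of 0.05 or less. Elk3, at the far end, has the lowest value of the stretch, -2.78. Of the measured genes just before it, Cfap54 is at -0.50 and called, and Cdk17, at 0.08, is not.

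Of 14 genes of the ERK route, 2 were called in Tfam KO islets (14.3%, beside 20.9% of all genes), both lower: the adaptor Shc1 (-0.39, adjusted p = 0.00219) and the Raf kinase Araf (-0.19, adjusted p = 0.0329). Neither was called with library totals alone, where Araf read 0.02. Of 11 feedback inhibitors of the route, the phosphatase gene Dusp1 was called lower, at 11.5 ± 1.57 against 15.3 ± 2.53 CPM (adjusted p = 0.0124), a call lost with library totals alone and in the deposited TPM. That is 9.09% of these inhibitors. None of the 3 coactivators of Srf was called by edgeR or by the DESeq2 Wald test, nor had any an unadjusted p under 0.05. Median log2 differences were -0.03 for the route and 0.01 for its inhibitors, beside -0.01 for all genes.

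Of the 4 genes reported to be repressed by Elk3 that were examined, 1 was called in Tfam KO islets, beside 20.9% of all genes. Hmox1, which degrades heme, stood at 26.2 ± 3.77 CPM (n = 6) in KO and 4.52 ± 1.14 CPM (n = 8) in control islets, a log2 difference of 2.54 (SE 0.16, adjusted p = 9.61e-09) with no overlap. The call for Hmox1 held with each of the 14 libraries left out and on each scaling. Fos, Egr1 and Nos2 were not called, and the median of the 4 was -0.50. Of 13 immediate-early SRF targets tested, Srf itself included, 3 were called: the antiproliferative gene Btg2 (-0.61, adjusted p = 2.15e-06) and the nuclear receptor gene Nr4a1 (-0.91, adjusted p = 0.0251) fell and the synaptic gene Arc rose (0.56, adjusted p = 0.0338). The Arc call was kept in 7 and the Nr4a1 call in 11 of the 14 fits that left out 1 library, and Nr4a1 also lost it with the replicate block, with library totals alone and in TPM. Of 19 cytoskeletal targets tested, 3 were called. Tagln2 (0.39) and the focal adhesion gene Zyx (0.41) rose and smooth muscle actin, Acta2, fell (-0.72), with adjusted p between 0.00377 and 0.00689. Of 20 other ETS factors tested, 4 were called, all lower, Ehf (-0.44), Etv5 (-0.47), Elf3 (-0.42) and Ets2 (-0.17), and with library totals alone none of these 4 was called and Ets2 read 0.04. The shares called were 23.1% of the immediate-early targets, 15.8% of the cytoskeletal targets and 20% of the ETS factors, near the 20.9% of all genes. Of the 14 calls in listed genes, 10 held with each library left out in turn, and Araf, Nr4a1, Arc and Ets2 did not, with Araf kept in 8 and Ets2 in 6 of the 14 fits.

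Endothelial markers were level where Elk3 was low in the Tfam KO islets, on the TMM scale. None of 12 markers was called by edgeR or the DESeq2 Wald test, 1 had an unadjusted p under 0.05, and their median was 0.03. With library totals alone 6 were called and in the deposited TPM 11. Their summed level ran from 431.9 to 559.7 CPM in KO and from 427.5 to 542.3 CPM in control islets. Per 100 CPM of these markers, Elk3 was at 1.45 ± 0.117 CPM in KO against 8.40 ± 1.49 CPM in control females, and at 0.930 ± 0.167 against 9.12 ± 1.37 CPM in males, with no overlap in either sex. In bulk RNA, fewer cells of a type and less RNA per cell cannot be told apart.

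In the Clec16a islets Elk3 went up. On RFD the 4 libraries labelled Clec16a KO read 101.6, 98.9, 74.3 and 79.9 CPM and the 4 controls 40.4, 56.5, 37.8 and 40.0 CPM. All KO libraries were above all controls. The means, 88.7 ± 13.6 and 43.7 ± 8.60 CPM (SD), differed by 1.02 on the log2 scale (SE 0.17, adjusted p = 0.00351 in edgeR), or 2.03-fold, and 7.52% of 17254 genes were called here, 3.99% higher and 3.54% lower. On HFD the 5 KO libraries read 104.0, 82.8, 85.8, 51.4 and 82.6 CPM, and the 6 controls ran from 39.2 to 55.7 with a median of 45.8 CPM. The groups overlapped through 1 KO library, replicate 4, which lay among the controls. The means, 81.3 ± 18.95 and 46.7 ± 6.08 CPM, differed by 0.80 (SE 0.15, adjusted p = 0.00246), or 1.74-fold, against 9.57% of genes called, 5.62% higher and 3.95% lower. Without that library the difference was 0.93 (adjusted p = 2.68e-05). On HFD, 83.5% of calls were higher with library totals alone against 58.7% with TMM, the median gene moving by 0.12, and Elk3 read 0.93 on that scale.

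Elk3 was not called between diets. HFD over RFD was 0.09 (SE 0.16, adjusted p = 0.999) in controls and -0.12 (SE 0.16, adjusted p = 0.9998) in KO islets. Those comparisons had 0.0406% and 0.0116% of genes called, 7 and 2 genes, and of the 7 the share called higher was 14.3%, against 0.0% of calls in the deposited TPM. The difference of the genotype effect between diets was -0.22 (SE 0.23, adjusted p = 0.9999), in an interaction where edgeR called no gene, 406 genes had an unadjusted p under 0.05 and the DESeq2 Wald test called 20.

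Sequencing lanes, as the file names give them, split these islets, and Elk3 was higher in KO within each. On RFD the log2 difference was 0.82 in lane 7 (3 KO, 2 control) and 1.34 in lane 8 (1 KO, 2 control), and on HFD it was 0.99 (2 and 3) and 0.64 (3 and 3).

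Endothelial markers rose together with Elk3 in these islets. Of 12 markers, 11 were called higher on RFD, with a median of 0.70, and 12 on HFD, with a median of 0.54. Their summed level ran from 929.4 to 1055 CPM in KO against 573.1 to 601.6 CPM in controls on RFD, and from 592.9 to 1083 CPM against 534.2 to 668.7 CPM on HFD. The KO library with the low Elk3 was also the one with the lowest endothelial sum of the KO libraries, 592.9 CPM. Over the 19 libraries the Pearson correlation of Elk3 with the mean of the markers (log2 CPM) was 0.94, given as a description, since the libraries share genotype and diet. In the 14 Tfam islet libraries it was -0.15 and in the 13 livers 0.14. Stromal markers moved too, 3 of 9 called higher on RFD and 5 of 9 on HFD. Of all genes, 3.99% were called higher on RFD and 5.62% on HFD.

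With the endothelial marker mean as a covariate, Elk3 in KO over control was 0.22 on RFD (adjusted p = 0.9997) and 0.15 on HFD (adjusted p = 0.999), so both calls ended. In that same fit no gene at all was called in either comparison, against 1298 and 1652 without the covariate, and the marker sums of KO and control islets did not overlap on RFD. Per 100 CPM of endothelial markers, Elk3 was at 8.89 ± 1.19 CPM in KO and 7.41 ± 1.34 CPM in control islets on RFD, and at 8.59 ± 0.903 and 7.66 ± 0.699 CPM on HFD, with overlapping ranges. The part of endothelial cells in the result was not tested beyond these values.

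**Figure D4:**
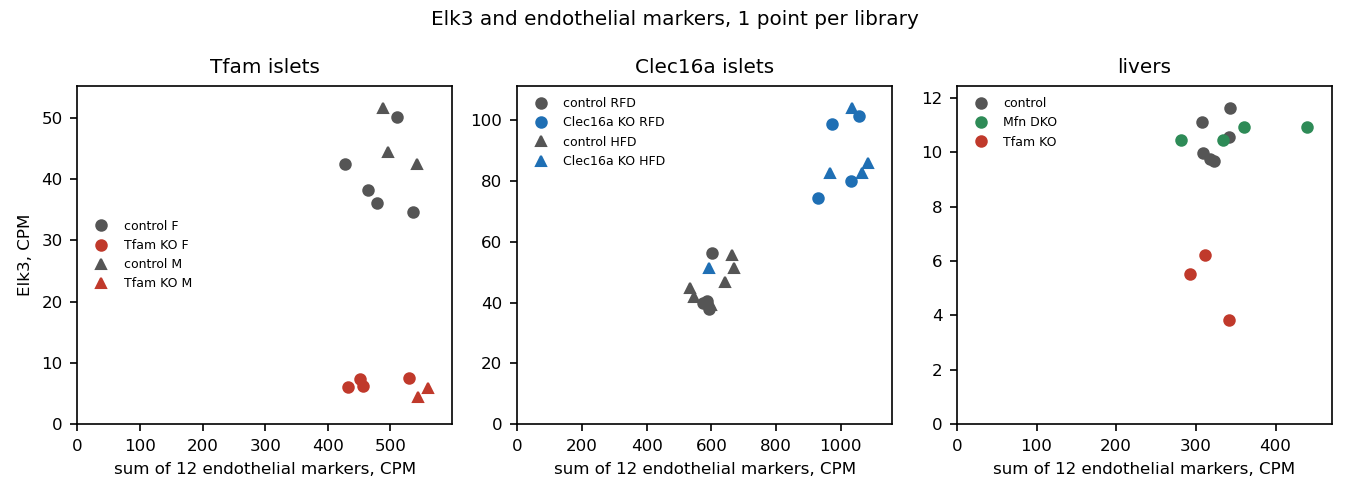
Elk3 in CPM (vertical axis) against the summed CPM of 12 endothelial markers (horizontal axis), 1 point per library, for Tfam islets, Clec16a islets and livers. In the Clec16a islets both rise together, and in the Tfam islets the KO libraries lie between 4.42 and 7.50 CPM of Elk3 at the same endothelial sums as the controls.

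Elk1, Elk4 and Srf gave no call in any of the comparisons of Clec16a islets. For KO over control on RFD and HFD, Elk1 differed by -0.02 and -0.03, Elk4 by -0.21 and -0.03 and Srf by 0.07 and 0.02, with adjusted p from 0.323 upward, and the signs of Elk1, and on HFD of Elk4, turned in the deposited TPM. Their SEs were between 0.10 and 0.18. Relative to the median gene, those TPM values were -0.030 and -0.016 for Elk1 on RFD and HFD and -0.012 for Elk4 on HFD. By library, Srf ran from 37.6 to 56.2 CPM in KO and from 35.3 to 46.7 CPM in control islets on RFD. On HFD it ran from 30.3 to 50.1 CPM in KO and from 28.4 to 56.4 CPM in controls, so the groups overlapped widely.

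Some feedback inhibitors of the ERK route were higher in the Clec16a KO islets. Sprouty and DUSP genes are switched on by ERK signals and damp them. On RFD 4 of 11 were called higher, Spry4 at 20.2 ± 1.95 against 6.82 ± 1.16 CPM (log2 difference 1.56, adjusted p = 0.00199), Dusp6, an ERK phosphatase, at 27.5 ± 1.33 against 10.6 ± 1.64 CPM (1.37, adjusted p = 0.00530), Dusp4 (1.40) and Spry1 (0.74). On HFD 4 of 11 were called higher, Dusp6 (1.32), Spry4 (1.11), Dusp4 (1.18) and Spred1 (0.48), all with adjusted p of 0.0224 or less. The share called was 36.4% on each diet, beside 7.52% and 9.57% of all genes. The medians of the list were 0.52 and 0.49, and those of all genes tested were within 0.01 of 0. Dusp6 and Spry4 kept their calls on both diets with each library left out, while on RFD Dusp4 kept its call in 3 and Spry1 in 2 of 8 such fits, and on HFD Dusp4 in 8 and Spred1 in 9 of 11. With the endothelial covariate the RFD values of Dusp6 and Spry1 turned to -0.12 and -0.078.

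Several other ETS factors were also called. The PEA3 group, Etv1, Etv4 and Etv5, whose genes are known to respond to ERK signals, was called higher on both diets. Etv5 stood at 60.3 ± 9.85 against 9.68 ± 4.28 CPM on RFD (2.63, adjusted p = 0.00263) and at 54.6 ± 25.3 against 11.9 ± 3.85 CPM on HFD (2.20, adjusted p = 9.20e-04). Etv4 was low, at 1.23 ± 0.329 against 0.257 ± 0.121 CPM on RFD (2.23) and 1.02 ± 0.601 against 0.197 ± 0.156 CPM on HFD (2.37), and Etv1 differed by 0.79 and 0.90. The RFD call of Etv4 was lost with each of the 8 libraries left out in turn, and that of Etv1 with 6 of the 8. The endothelial factors Erg (0.74 and 0.52) and Ets1 (0.64 and 0.56) were higher on both diets and Fli1 (0.78) on HFD, and the epithelial factor Elf3 fell on HFD (-0.51). In all, 5 of 20 other ETS factors were called on RFD (25.0%, beside 7.52% of all genes) and 7 of 20 on HFD (35.0%, beside 9.57%).

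Calls in the other lists are set here beside 7.52% of all genes on RFD and 9.57% on HFD. Of the 14 ERK route genes, the kinase gene Rps6ka3 was called higher on RFD (0.47) and HFD (0.43), and Mapk3, which encodes ERK1, fell on HFD (-0.34, adjusted p = 0.0287). Of 13 immediate-early targets tested, Ier2 rose on RFD (1.08, adjusted p = 0.0106) and Fosb fell on HFD (-1.61, adjusted p = 0.0388), and Fos on RFD read 15.1 ± 12.02 against 6.67 ± 1.25 CPM with no call (adjusted p = 0.111). Of 19 cytoskeletal targets, the myosin light chain gene Myl9 (0.74) and Tpm2 (0.73) were called higher on RFD and Myl9 (0.65), Tpm1 (0.34), Flna (0.31) and Acta2 (0.79) on HFD. These are 10.5% and 21.1% of that list, against 7.14% and 14.3% for the ERK route and 7.69% on each diet for the immediate-early targets. Of the 4 genes reported to be repressed by Elk3, none was called on RFD by edgeR, 2 had an unadjusted p under 0.05 and the DESeq2 Wald test called 1, and Hmox1 was called higher on HFD (0.61, adjusted p = 0.0431). Of the calls in listed genes, 6 of 13 on RFD and 8 of 19 on HFD held with each library left out in turn. With the endothelial covariate all of them were lost, and 5 changed sign on RFD and 4 on HFD.

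In the livers Elk3 fell in the Tfam KO group and was not called in the Mfn DKO group. The 6 controls read from 9.69 to 11.6 with a median of 10.3 CPM, the 4 Mfn DKO livers 10.5, 10.9, 10.4 and 10.9 CPM, and the 3 Tfam KO livers 5.52, 6.24 and 3.84 CPM. The Tfam KO livers lay below all others. Tfam KO against control was 5.20 ± 1.23 against 10.5 ± 0.785 CPM, a log2 difference of -1.004 (SE 0.14, adjusted p = 9.70e-04 in edgeR), or 2.01-fold lower, in a comparison with 29.3% of 17024 genes called, 18.1% higher and 11.3% lower. Mfn DKO against control was 0.03 (SE 0.13, adjusted p = 0.892), where 9.87% of genes were called, 5.23% higher and 4.64% lower. Both comparisons share the 6 controls, and no test of Tfam KO against Mfn DKO livers was made.

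The size of the liver difference depended on the scaling. With library totals alone the median gene was 0.46 higher in Tfam KO livers, 88.9% of calls were higher against 61.6% with TMM, and Elk3 read -0.54 (adjusted p = 0.0387). In the deposited TPM the median gene was 0.48 higher, 90.6% of calls were higher, and Elk3 read -0.36 (adjusted p = 0.136 in limma), so the call ended and the ranges overlapped, 2.27 to 5.71 TPM against 4.35 to 5.64 TPM. Relative to the median gene Elk3 was at -1.03 with TMM, -0.997 with library totals and -0.85 in TPM. In the Mfn DKO livers library totals alone moved the median gene by 0.21 and the higher share of calls from 53.0% to 82.3%. Elk3 in Mfn DKO livers read 0.23 with library totals alone and 0.31 in the deposited TPM. Relative to the median gene these values were 0.014 and 0.068. The TPM ranges did not overlap, 5.97 to 6.34 TPM in Mfn DKO against 4.35 to 5.64 TPM in control livers. Without Tfam KO replicate 3, the lowest, the difference on the TMM scale was -0.85 (adjusted p = 1.41e-04).

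Marker levels in the livers differed in part with the groups. Endothelial markers gave no call in Tfam KO livers by edgeR or the DESeq2 Wald test, none had an unadjusted p under 0.05, and 8 were called with library totals alone and 11 in the deposited TPM. Their sum ran from 292.8 to 341.9 CPM against 307.8 to 343.4 CPM. Of 6 hepatocyte markers 3 were called lower, beside 11.3% of all genes. Their sum ran from 21460 to 90610 CPM in Tfam KO against 89426 to 134486 CPM in control livers. Sex is not labelled, and by Xist 7 livers were high and 6 low. Elk3 in Tfam KO over control was -1.12 among the high (2 KO, 3 control) and -0.88 among the low (1 KO, 3 control).

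Elk4, the most abundant ternary complex factor of the liver in TPM, was the other member called. It read 42.9, 28.2 and 41.4 CPM in the 3 Tfam KO livers and from 47.1 to 57.1 with a median of 52.7 CPM in controls, without overlap. The log2 difference was -0.48 (SE 0.13, adjusted p = 0.0185 in edgeR). That direction held on the TMM scale but not in the deposited TPM, where Elk4 read 0.11 (adjusted p = 0.402), and with library totals alone it read -0.08 (adjusted p = 0.550). Relative to the median gene Elk4 was at -0.51 with TMM, -0.54 with library totals and -0.38 in TPM. Without Tfam KO replicate 2, the lowest, the difference on the TMM scale was -0.31 (adjusted p = 0.0820). In Mfn DKO livers Elk4 differed by -0.0099 (SE 0.12, adjusted p = 0.968), which read 0.18 with library totals alone.

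Elk1 differed by -0.25 in Tfam KO (SE 0.15, adjusted p = 0.213) and by -0.27 in Mfn DKO livers (SE 0.13, adjusted p = 0.196), and both signs turned in the deposited TPM (0.32 and 0.019). Relative to the median gene, Elk1 in TPM was at -0.16 and -0.22. Its levels were 5.62, 5.27 and 6.01 CPM in Tfam KO, 4.94 to 6.70 CPM in Mfn DKO and 5.79 to 7.58 CPM in control livers, which overlapped. Srf read 18.8, 17.7 and 14.1 CPM in Tfam KO livers and 13.3 to 18.1 CPM in controls, a difference of 0.09 (SE 0.12, adjusted p = 0.608). Srf read 0.53 with library totals alone and was called (adjusted p = 0.0152), which is 0.08 relative to the median gene, and in the deposited TPM it read 0.68, or 0.20 relative to the median gene. In Mfn DKO livers Srf differed by -0.07 (SE 0.11, adjusted p = 0.729), which read 0.13 with library totals alone.

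**Figure D5:**
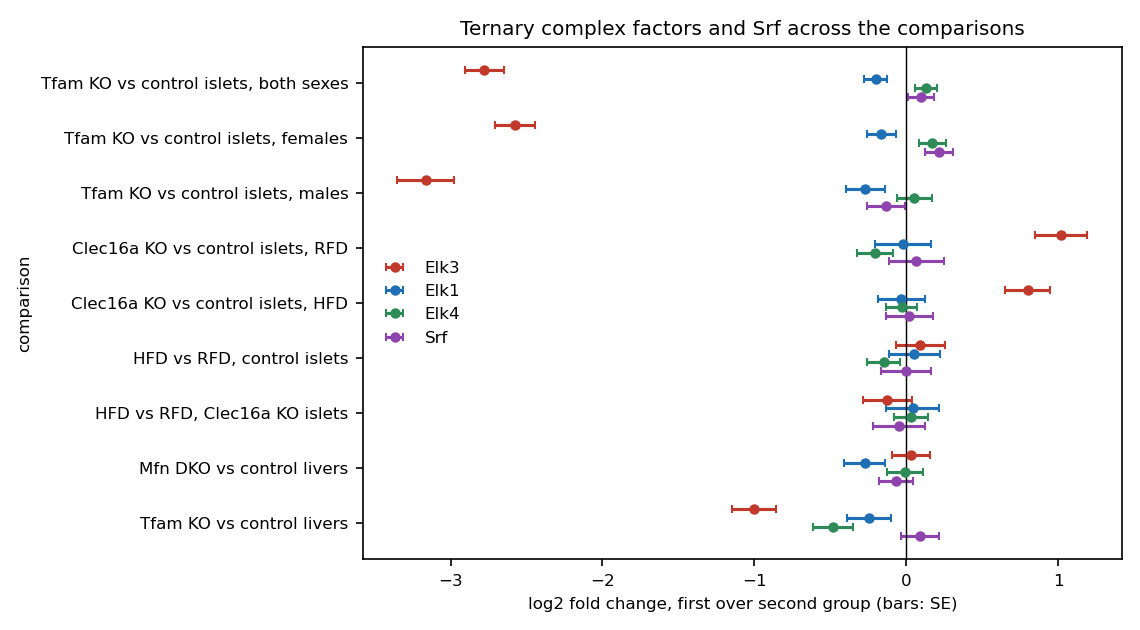
Log2 fold change of the first over the second group (horizontal axis, bars 1 SE) for Elk3, Elk1, Elk4 and Srf in 9 comparisons (vertical axis). Elk3 spans -3.16 to 1.02, while Elk1, Elk4 and Srf stay between -0.48 and 0.22 on this TMM scale.

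Of the 4 genes reported to be repressed by Elk3, 3 were called higher in the Tfam KO livers, where 18.1% of all genes were, and Egr1 was not called. Hmox1 stood at 63.5 ± 24.7 against 23.6 ± 4.19 CPM (1.43, adjusted p = 0.00120), without overlap. Fos stood at 3.63 ± 1.95 against 1.20 ± 0.540 CPM (1.59), and its call was kept in 6 of the 9 fits that left out 1 library. Nos2, at 0.149 ± 0.107 against 0.0222 ± 0.0246 CPM, was close to the floor of counting and is given without a fold, and its call was kept in 1 of the 9, while that of Hmox1 was kept in all. In Mfn DKO livers, where Elk3 was level on the TMM scale, 2 of the 4 were called higher, beside 5.23% of all genes. These were Hmox1 at 46.04 ± 9.68 CPM (0.96, adjusted p = 0.0130) and Nos2 at 0.231 ± 0.166 CPM. Egr1 there read 53.4 ± 35.5 against 8.65 ± 8.75 CPM and just missed the threshold (adjusted p = 0.0527).

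Of 19 cytoskeletal targets tested in Tfam KO livers, 7 were called, all higher, with a median of 0.70 beside 0.03 for all genes, and 14 with library totals alone. Tropomyosin 1, Tpm1, stood at 167.7 ± 112.4 against 35.4 ± 4.91 CPM (2.25, adjusted p = 8.38e-04), Tagln2 differed by 2.11, the matrix gene Ccn2 by 2.91, Flna by 1.04, Actg1 by 1.12, Myh9 by 0.98 and Tpm4 by 0.70. The 36.8% called stands beside 29.3% of all genes in this comparison. Without Tfam KO replicate 2, Ccn2 read 0.95, Flna 0.47 and Actg1 0.17, and the Actg1 call was lost in 4 of the 9 fits that left out 1 library. In Mfn DKO livers Tpm1 was called higher (1.08) and Tpm2 lower (-1.31). None of the coactivators tested was called in either comparison by edgeR or the DESeq2 Wald test, or had an unadjusted p under 0.05, and 1 was called in Tfam KO livers with library totals alone.

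Of the ERK route, Rps6ka3 (0.97) and Nras (0.58) were called higher in Tfam KO livers, and Araf lower (-0.29, though 0.012 in the deposited TPM) in Mfn DKO livers. Of its inhibitors, Dusp4 rose from 1.44 ± 0.624 to 40.1 ± 34.1 CPM (4.81, adjusted p = 0.00107) and Dusp5 by 1.93 in Tfam KO livers. Spry4 went the other way in both, at 10.5 ± 6.89 CPM in Tfam KO and 9.71 ± 2.59 CPM in Mfn DKO against 26.8 ± 11.7 CPM in control livers. Of 14 immediate-early targets tested, Ier2 fell in both, by 0.99 and 0.66. Btg2 (1.501) and Fos, whose values are given above, rose in Tfam KO livers. Of 20 other ETS factors, Ets2 rose (1.46) and Elf5 fell, from 0.234 ± 0.0645 to 0.0494 ± 0.0348 CPM, in Tfam KO livers, and Erf, a repressor, rose (0.50) in Mfn DKO livers. Of all genes, 29.3% were called in Tfam KO and 9.87% in Mfn DKO livers. The immediate-early targets and the other ETS factors had smaller shares called in both comparisons. So did the ERK route in Tfam KO livers. Of the calls in listed genes, 10 of 19 in Tfam KO livers and 2 of 8 in Mfn DKO livers, Ier2 and Hmox1, held with each library left out in turn.

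Genes whose level rose and fell most closely with Elk3 were sought over the 46 libraries, as a description with no test. The search covered the 14504 genes that passed the filter in every experiment. With each group's mean taken away, so that only the spread within groups counts, the 5 highest Pearson correlations were with Rcc2 (0.74), Etv5 (0.71), Unc5b (0.66), Pycr1 (0.66) and Zbtb42 (0.65). Within the Clec16a islets Rcc2 and Etv5 were at 0.88 and 0.86, and within the Tfam islets at 0.16 and 0.30. Of the Clec16a islet libraries, KO HFD replicate 4 lay farthest from its group mean in Elk3. The correlations were not read without that library. By the same measure Srf reached 0.39, Elk1 0.08 and Elk4 -0.29, and the 12 endothelial markers lay between 0.11 and 0.49. Within the Clec16a islets the markers lay between 0.36 and 0.76. Within the Tfam islets they lay between -0.23 and 0.29, and within the livers between -0.77 and 0.51. With only each experiment's mean taken away, so that group differences count too, the 5 highest were Chst12 (0.76), B630019K06Rik (0.75), Chrd (0.72), Tob1 (0.72) and Eva1b (0.71). Within the Tfam islets, on which Elk3 was chosen, these read 0.96, 0.93, 0.81, 0.91 and 0.89. Within the Clec16a islets they read 0.79, 0.47, 0.90, 0.78 and 0.48, and within the livers 0.31, 0.34, 0.81, 0.53 and 0.31. The 5 most negative were larger in size: Gsto1 (-0.81), F2 (-0.81), Rasgef1b (-0.80), Tfpi2 (-0.78) and Gnai2 (-0.77). The points share libraries, depth and the group differences described above.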

How the data were processed

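RNA was sequenced from 46 libraries (33 from islets and 13 from livers) as 151-base read pairs, per the labels. The authors deposited, per library, whole-number read counts per gene together with CPM and TPM, per the file headers. Per the submitters' processing notes the tools included STAR 2.6.1b, RSEM 1.3.1, featureCounts and DESeq2 with GRCm38, and the step behind each column and the strand setting are not given in the sources used here. The deposited CPM entered no test.

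The members and the gene lists were chosen with earlier results of these data known, and 2 listed genes are not reported here. Groups are those of the labels. The 3 experiments had a separate fit each in edgeR 4.0.16 (R 4.3.3), with filterByExpr, TMM and the quasi-likelihood test. Sex was a term in the Tfam islets, and Benjamini-Hochberg adjustment ran over all genes tested. CPM printed are on TMM-scaled library sizes, and SEs are the log2 fold change divided by the root of F. Listed genes were named where called, up to the 4 with the lowest adjusted p per list in full, together with all members and the 5 genes on each side of Elk3. Further called genes of the longer lists, Fos on RFD and Egr1 in Mfn DKO livers were added after their values were seen. Alternatives were DESeq2 1.42.0 size factors and its Wald test, other filters, covariates, a replicate block and each library left out. Library totals alone and the deposited TPM in limma 3.58.1, as log2(TPM + 0.5), were added after seeing the data. Correlations of deviations between libraries of equal number had medians of 0.07, -0.02 and 0.09 for Tfam islets, Clec16a islets and livers, so the numbers were not taken as pairs. Promoters and exons came from RefSeq and GENCODE M21, in which 55141 of the 55487 identifiers were found. The fits were tested on simulated data.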

Additional observations from a re-analysis of the deposited data

Results flagged for a closer look

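The 8 groups of 4 to 6 libraries were examined for each of the 4 genes, and in 3 of these 32 cases 1 library lay apart from the others of its group by Dixon's test at the 95% level, which chance does in about 1 case in 20. Elk3 was highest in Clec16a control RFD replicate 2, at 56.5 CPM against 37.8 to 40.4 CPM in the other 3. Elk4 was highest in Tfam KO female replicate 4, at 27.8 CPM against 24.4 to 24.5 CPM. Srf was highest in Clec16a KO RFD replicate 1, at 56.2 CPM against 37.6 to 39.5 CPM.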

How the results depend on the processing

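Elk3 kept its direction under every alternative in the comparisons of KO with control, and its calls ended with the endothelial covariate (0.22 on RFD, 0.15 on HFD) and, in Tfam KO livers, in the deposited TPM (-0.36). In Tfam islets it read -2.57 (both sexes) and -2.36 (females) with library totals alone, and -2.24, -2.02 and, in males, -2.65 in TPM. Each library left out gave -3.39 to -2.98 in males and -0.23 to 0.0036 for HFD over RFD in KO islets, where the sign turned without KO HFD replicate 4.

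The other members moved about 0. With library totals alone Elk1 read 0.00087 (both sexes), 0.043 (females), 0.094 (Clec16a HFD), 0.096 (genotype by diet) and 0.17 (Tfam livers). On that scale Elk4 read 0.086 (Clec16a HFD) and 0.18 (Mfn DKO), and Srf 0.064 (Tfam males), -0.028 (diet, control), 0.038 (diet, KO), 0.066 (genotype by diet) and 0.13 (Mfn DKO). In TPM Elk1 read 0.18, 0.24 and 0.064 in Tfam islets (both, females, males), 0.0034 and 0.14 in Clec16a islets (RFD, HFD), 0.14 for genotype by diet, 0.019 in Mfn DKO and 0.32 in Tfam KO livers. In TPM Elk4 read 0.14 (Clec16a HFD), 0.28 (Mfn DKO) and 0.11 (Tfam livers), and Srf 0.20 (Tfam males), -0.028 and 0.088 (diet, control and KO), 0.12 (genotype by diet) and 0.23 (Mfn DKO). With the endothelial covariate Elk4 read 0.015 (genotype by sex), 0.13 (Clec16a HFD), -0.0089 (diet, KO) and 0.021 (Mfn DKO), and Elk1 0.031 (genotype by diet). Srf then read -0.56 and -0.46 (Clec16a RFD, HFD), -0.035 and 0.058 (diet, control and KO) and 0.094 (genotype by diet). With the acinar covariate Srf read -0.022 (diet, control), Elk4 -0.022 (diet, KO) and Elk1 0.036 (genotype by diet). With lane as a factor Elk1 read 0.00063 (Clec16a RFD) and Srf -0.022, 0.016 and 0.038 (diet in control, diet in KO, genotype by diet), and with at least 10 counts in every library Srf read -0.0024 (diet, control).

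With the replicate block Elk4 read 0.0063 and Srf -0.066 on HFD and Srf 0.0094 in Mfn DKO livers, and Elk4 in Tfam KO livers lost its call (-0.53, adjusted p = 0.0736 in edgeR). The block changed no other call of the members.

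Each library left out gave, for Elk1, -0.11 to 0.054 (Clec16a HFD), -0.15 to 0.095 (RFD), -0.075 to 0.17 (diet, KO), -0.012 to 0.14 (diet, control) and -0.13 to 0.11 (genotype by diet). For Elk4 it gave -0.081 to 0.011 (Clec16a HFD), -0.048 to 0.10 (diet, KO) and -0.059 to 0.037 (Mfn DKO). For Srf it gave -0.066 to 0.13 (Clec16a HFD), -0.085 to 0.14 (RFD), -0.12 to 0.11 (diet, KO), -0.10 to 0.087 (diet, control) and -0.13 to 0.10 (genotype by diet). Srf in Tfam KO females passed the threshold without control female replicate 2 (adjusted p = 0.0363 in edgeR) and Elk1 over both sexes without control female replicate 4 (adjusted p = 0.0304).

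Among listed genes in Tfam islets, Araf read 0.20 and Ets2 0.22 in TPM, and Araf 0.019 and Ets2 0.037 with library totals alone. In Mfn DKO livers Araf read 0.012 in TPM. With the endothelial covariate Dusp6 read -0.12, Spry1 -0.078, Ets1 -0.10, Etv1 -0.041 and Etv4 -0.97 on RFD, and Hmox1 -0.090, Ets1 -0.036, Fli1 -0.18 and Etv4 -0.57 on HFD.

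Counts of called genes moved by over 1.5 times as follows. With library totals alone and in TPM they were 6825 and 10387 (from 4119) in Tfam islets, 4766 and 8817 (from 2142) in females, 3169 and 4398 (from 1764) in males and 8154 and 9567 (from 4992) in Tfam KO livers, and in TPM 669 (from 1298) on RFD. The Wald test gave 2708 in males, 54 (from 7) and 42 (from 2) between diets and 2870 (from 1681) in Mfn DKO livers. The block gave 975 (from 1652) on HFD, 169 in Mfn DKO, 395 in Tfam KO livers, 3 for diet in controls and 36 (from 0) for genotype by sex, where no filter gave 30. A fit of only the groups compared gave 4338 in Mfn DKO and 3228 in Tfam KO livers and 0 for diet in KO islets. For diet the other settings gave 2 to 4 in controls and 0 to 19 in KO islets. Each library left out gave 523 to 1224 on RFD, 786 to 3369 on HFD, 3 to 12 and 0 to 31 between diets, 1336 to 2626 in females, 578 to 1543 in males, 0 to 1 for genotype by sex, 686 to 1444 in Mfn DKO and 2504 to 7330 in Tfam KO livers, the highest on HFD without KO HFD replicate 4 and the lowest in Tfam KO livers without their replicate 2. The causes were not tested.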
